A study of Mus musculus with 5 samples.

Results

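Nonclassical monocytes were taken here as bone marrow barcodes with at least 500 unique molecular identifiers (UMIs), at most 10% mitochondrial UMIs, at least 1 UMI of Csf1r, at least 1 UMI of Ace or Treml4, no UMI of F13a1 or Siglech and fewer than 10 UMIs of C1qa, C1qb and C1qc together. The rule held for 173 of 29679 barcodes. The members were therefore chosen on measured values of these genes, and their levels of these genes are given only as a description. Ace lies at chr11:105967945-105989964 and Treml4 at chr17:48264295-48275360 (GRCm38.p6), and the excluded F13a1, a coagulation factor XIII subunit made by classical monocytes, at chr13:36867178-37050244. Droplet-based single-cell RNA sequencing had been applied to marrow of 5 non-irradiated C57BL/6J mice, bought at 8 weeks of age, each of which received 1000 BCR-ABL1+ pre-B acute lymphoblastic leukemia cells by tail vein. They were examined at day 0 (directly after transplantation, so this mouse had also received the cells), day 3, day 6, day 9 and day 12, with 1 mouse a day and hence no replicate of any day. Flushed marrow and the cells released from crushed long bones by collagenase and DNase were pooled, and red cells were lysed.

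Nonclassical monocytes are the patrolling subset that crawls along the endothelium of small vessels and clears debris. They arise largely from classical Ly6c2-high monocytes, depend on the orphan nuclear receptor Nr4a1 and on Csf1r, the receptor of macrophage colony-stimulating factor, and carry the fractalkine receptor Cx3cr1 with little of the chemokine receptor Ccr2. Ace, angiotensin-converting enzyme, and Treml4, a receptor of the TREM family, mark them in the mouse.

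The members numbered 27 at day 0, 36 at day 3, 52 at day 6, 43 at day 9 and 15 at day 12, with a median of 4001 UMIs and 1304 genes. Ace alone was seen in 75 of them, Treml4 alone in 63 and both in 35. The label was checked against markers of other cells before any comparison, and 57 members carried at least 10% of their UMIs from 8 neutrophil genes (S100a8, S100a9, Retnlg, Camp, Ngp, Ltf, Mmp8 and Lcn2). These neutrophil-rich barcodes numbered 11, 11, 11, 15 and 9 from day 0 to day 12. Their median neutrophil share was 40.7%, against 2.34% in the other 116 members, and 114 members lay below 6% with none between 6% and 8%. The limit of 10% was chosen after the data were seen.

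Gngt2, a G protein gamma subunit that is a marker of nonclassical monocytes, had a UMI in 110 of the 116 members that were not neutrophil-rich and in 28 of the 57 that were, although the latter had more UMIs (median 5998 against 3502.5). Other unused markers differed less as counted: Fcgr4, an IgG receptor, was seen in 44.0% of the 116 and 42.1% of the 57, and Spn, leukosialin, in 31.0% and 33.3%. After every cell was thinned to 1000 UMIs, the shares were 76.8% and 21.8% for Gngt2, 29.5% and 7.27% for Fcgr4 and 11.6% and 3.64% for Spn. Neutrophil-rich barcodes outside the rule held Fcgr4 in 18.6% before thinning. Most neutrophil-rich members had entered by Treml4 alone (36 of 57), whereas 60 of the other 116 had entered by Ace alone and 29 by both genes. The neutrophil-rich members differed by day. From day 0 to day 12, Gngt2 was seen in 2 of 11, 9 of 11, 5 of 11, 11 of 15 and 1 of 9. Entry by Treml4 alone numbered 10, 7, 7, 4 and 8 of them. Over all neutrophil-rich barcodes of a library, 1.95% to 3.72% held a Treml4 UMI and 0.116% to 0.627% an Ace UMI. In B-lineage barcodes, which should lack both, Treml4 was seen in 0.0953% to 0.794% and Ace in up to 0.191%, at median depths of 1728 to 3239.5 UMIs. The defining neutrophil genes thus accompanied 32.9% of the barcodes of the rule, and whether these are mixed droplets or neutrophils with stray transcripts was not tested. Shares and counts of called genes are given with and without them, and values of single genes without them unless said otherwise.

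**Figure D1:**
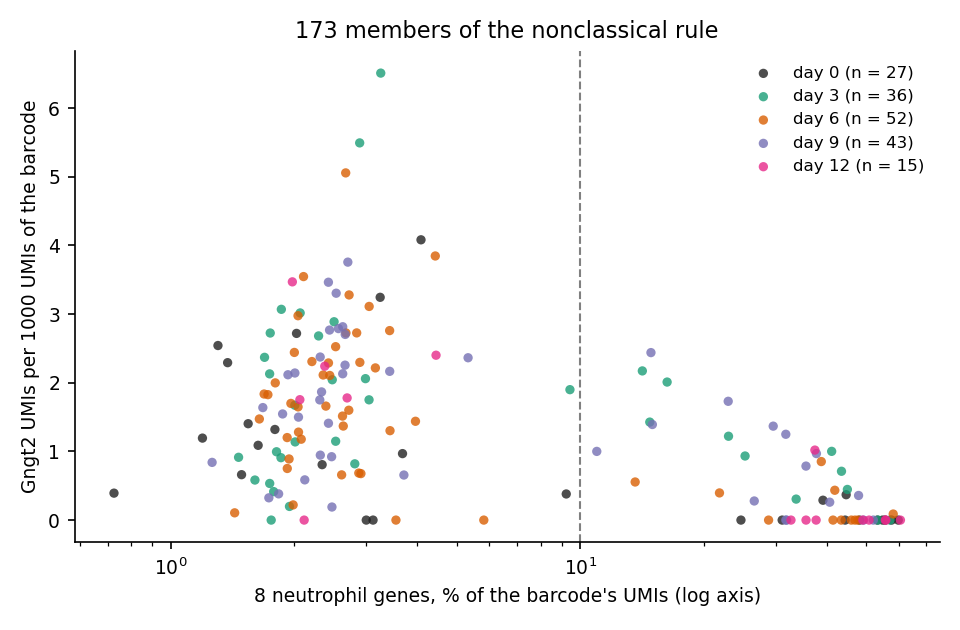
Each point is 1 of the 173 members, coloured by day. The x axis gives the percent of its UMIs from 8 neutrophil genes on a log axis, with a dashed line at 10%, and the y axis its Gngt2 UMIs per 1000 UMIs. The 116 members left of the line centre on a median of 2.34%, and 110 of them hold Gngt2. The 57 members to the right centre on 40.7%, and 28 of them hold it.

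Among the 116 members that were not neutrophil-rich (16, 25, 41, 28 and 6 by day), Csf1r had 233 UMIs, Ace 154 and Treml4 79. Cx3cr1, the label's marker that the rule left free, was seen in 71 (61.2%). It was also seen in 59.0% of the classical monocytes defined below, without neutrophil-rich ones. Other lineages were sparse in most members but not in all. At least 2 B-cell UMIs were held by 14 members, as many T or NK cell UMIs by 2 and as many erythroid UMIs by 2. A UMI of the proliferation genes Mki67 or Top2a was held by 11. The highest B-cell counts of single members were 34, 28, 24, 12 and 11 UMIs. The member with 11 held 18936 of the 153013 UMIs of day 6, and the member with 24 held 10377 of the 103046 of day 9. Whether these are mixed droplets was not tested. The summed level of the 6 B-cell markers was 0% to 0.0660% of UMIs by library, against 0.00241% to 0.0169% in the classical monocytes defined below. The 13 macrophage markers, which include the capped C1qa, C1qb and C1qc, summed to 0.0186% to 0.0880%, with 4 of the 13 at 0 in all. In classical monocytes these 13 summed to 0.0177% to 0.0218%, so members reached higher levels. The 8 conventional dendritic markers summed to 0.00523% to 0.0221%, against 0.0142% to 0.0257% in the classical monocytes defined below. The rule stood at the edge of detection. Csf1r rested on a single UMI in 93 of 173 members and Ace or Treml4 in 95, while 498 barcodes failed only by having no Csf1r UMI, 1230 only by having neither Ace nor Treml4, and 37 only by a single F13a1 UMI. No barcode sequence was shared between members of different libraries, against 513 shared pairs among all barcodes kept.

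The share of nonclassical monocytes among all barcodes was highest at day 6 and lowest at day 12. It was 0.431% at day 0 (95% exact binomial interval 0.284% to 0.627%), 0.739% at day 3 (0.518% to 1.02%) and 0.861% at day 6 (0.644% to 1.13%). At day 9 it was 0.619% (0.448% to 0.833%) and at day 12 0.270% (0.151% to 0.444%). The interval of day 6 lay above those of days 0 and 12, while neighbouring days overlapped except days 9 and 12. Without neutrophil-rich members the shares were 0.256%, 0.513%, 0.679%, 0.403% and 0.108%, in the same order of days. The intervals cover counting error only, and mouse, day and library cannot be told apart. The neutrophil-rich share of all barcodes moved with day as well, from 50.2% at day 0 to 77.1% at day 12. With neutrophil-rich barcodes left out of both counts, members were 3.52% (2.03% to 5.66%) of monocytes at day 0, 5.69% at day 3, 7.22% (5.23% to 9.67%) at day 6, 5.17% at day 9 and 1.66% (0.612% to 3.58%) at day 12. In this share the intervals of days 0 and 6 overlapped. Monocytes here were the members plus the barcodes of the rule's other limits that had F13a1.

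**Figure D2:**
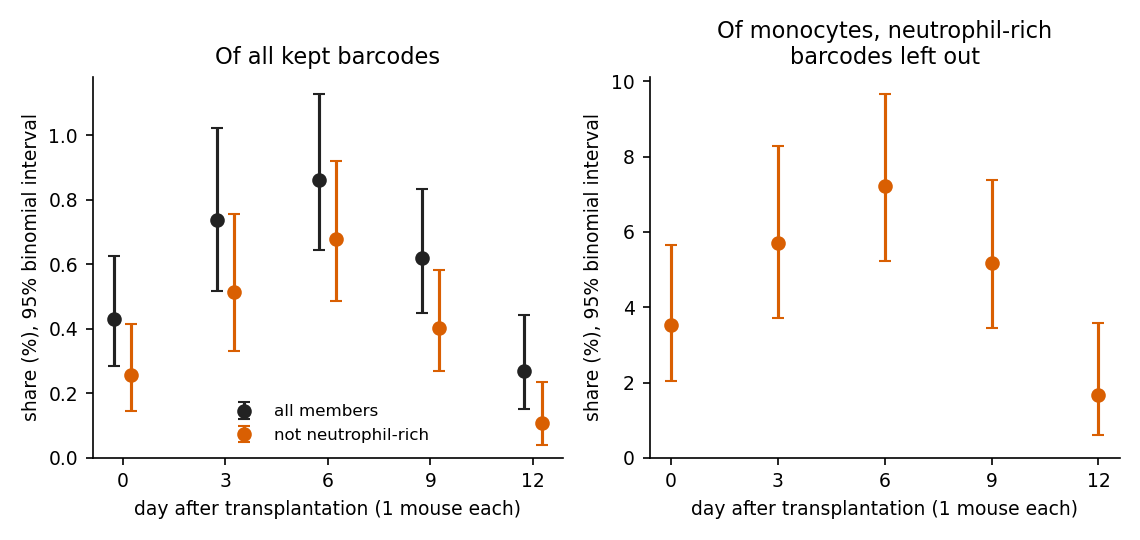
Shares by day, 1 mouse each, with 95% exact binomial intervals. Left, percent of all kept barcodes for all members (black) and for members that were not neutrophil-rich (orange). Right, percent of monocytes with neutrophil-rich barcodes left out. Both panels are highest at day 6 (0.861%, 0.679% and 7.22%) and lowest at day 12 (0.270%, 0.108% and 1.66%).

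To ask which other genes went with the markers of the rule, UMIs were summed by library over members and over classical monocytes of the same library, and compared with edgeR's quasi-likelihood test with library as a term. Classical monocytes were barcodes with F13a1 and Csf1r but neither Ace nor Treml4, and without Mki67, Top2a or Mpo, 1061 in all and 990 without neutrophil-rich ones. The limit on Mki67, Top2a and Mpo was set for this class only, and 2282 barcodes met its other limits. Among all 173 members, 26 held Mki67 or Top2a and 34 held Mpo. Genes that defined either class were left out of the test. The cells were nevertheless picked by such markers, so the test describes the company these markers keep and is not independent of the choice. Over all members and 5 libraries, 563 of 6010 genes were higher (9.37%) and 452 lower (7.52%) at a Benjamini-Hochberg adjusted p below 0.05. Without neutrophil-rich barcodes, 237 of 6577 genes were higher (3.6%) and 246 lower (3.74%). This second comparison used 4 libraries, since day 12 had only 6 such members, and the values below come from it unless said otherwise. Of its higher genes 197 were also higher over all members, which is 83.1% of the 237 and 35.0% of the 563, and of its lower genes 171 were shared, 69.5% of the 246 and 37.8% of the 452.

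All 24 tested genes of the 27 nonclassical markers were higher, with a median log2 fold change of 2.63 beside -0.06 over all genes tested, and the same 24 of 24 held over all members (median 2.68, all genes -0.03). The marker lists were chosen with earlier results of these data known. These counts therefore describe the lists and are no independent check of the label. Markers such as Cx3cr1, Itgal, Spn, Cd36, Fabp4, Nr4a1 and both Bcl2a1 paralogs are counted again in other lists below, which are therefore not separate results. Fcgr4, the low-affinity IgG receptor FcγRIV that is typical of these cells, stood at 110.0, 124, 353 and 281 CPM at days 0, 3, 6 and 9 (CPM, the UMIs of a gene over the summed UMIs of the class in that library, per 1000000 UMIs), and at 6.90 to 13.5 CPM in classical monocytes. Its log2 fold change was 4.46 ± 0.35 (SE, edgeR adjusted p = 2e-12). Ear2, an eosinophil-associated ribonuclease, stood at 1166, 787, 915 and 611 CPM against 45.1 to 63.6 CPM, a log2 fold change of 3.93 ± 0.17. Ear2 belongs to a family of near-identical genes, so its counts may hold reads of its relatives. For both genes every library of members lay above every library of classical monocytes. Over all members the log2 fold changes were 4.04 ± 0.28 and 3.43 ± 0.16.

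The same was true of Gngt2, which had 1342, 1601, 1608 and 1650 CPM against 143 to 213 CPM (log2 fold change 3.21 ± 0.14, edgeR adjusted p = 6.6e-20), and of the adhesion G protein-coupled receptor Adgre4, which had 352, 203, 255 and 320.2 CPM against 23.7 to 27.0 CPM (3.41 ± 0.24). The anti-apoptotic Bcl2 relatives Bcl2a1b and Bcl2a1d were higher by 3.42 ± 0.25 and 3.61 ± 0.26 on the log2 scale. These paralogs are nearly identical and their counts cannot be told apart with certainty.

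These genes are among the 15 with the largest increase in the named-gene ranking. The others were G0s2, an inhibitor of lipolysis (3.23), the receptor Cd300ld (3.18), the tubulin-binding Tppp3 (2.80), the actin regulator Abi3 (2.79) and H2-Eb1 (2.75). They also included the inhibitory receptor Lair1 (2.66), the iron regulator Hfe (2.65), Chchd10 (2.56) and lymphotoxin beta, Ltb (2.51). Chchd10, a mitochondrial protein, lost its call without day 9 (1.38, edgeR adjusted p = 0.25). G0s2 was uneven over days, with 682 CPM at day 0 and 97.3, 32.7 and 67.9 CPM at days 3, 6 and 9.

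A promoter was found for 12 of these 15 genes in a RefSeq table of GRCm38.p6, and none was found for Tppp3, Gngt2 and Abi3. On either strand, the PU.1 letters GAGGAAGT occurred in 4 of the 12 (Bcl2a1b, Bcl2a1d, Cd300ld and Fcgr4) and in 2.44% of 32851 promoters of the same length. The C/EBP letters TTGCNNAA occurred in 3 (Adgre4, Ear2 and Lair1) and in 9.56% of all, the NR4A letters AAAGGTCA in 1 (H2-Eb1) and in 1.34% of all, and the KLF letters CCACACCC in none and in 3.20% of all. A match describes letters only, and Bcl2a1b and Bcl2a1d share sequence. The 250 bases before the start are shown for 4 genes described above that held a match, without the paralog Bcl2a1d, with the match in capitals, 5′ to 3′ on the gene's strand. They lie on the plus strand at chr1:171018676-171018925 (Fcgr4), chr9:89199023-89199272 (Bcl2a1b), chr14:44102404-44102653 (Ear2) and chr17:55749734-55749983 (Adgre4), and the matches of Fcgr4 and Adgre4 read on the opposite strand.
Fcgr4: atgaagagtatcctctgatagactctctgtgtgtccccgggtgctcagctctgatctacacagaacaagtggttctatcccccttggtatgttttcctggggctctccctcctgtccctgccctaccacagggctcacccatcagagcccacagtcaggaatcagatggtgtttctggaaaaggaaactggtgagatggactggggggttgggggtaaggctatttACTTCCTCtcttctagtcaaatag
Bcl2a1b: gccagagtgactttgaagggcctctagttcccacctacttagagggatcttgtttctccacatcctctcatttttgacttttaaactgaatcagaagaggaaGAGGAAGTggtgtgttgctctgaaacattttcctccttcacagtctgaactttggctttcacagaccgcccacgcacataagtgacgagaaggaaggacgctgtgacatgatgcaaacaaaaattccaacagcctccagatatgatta
Ear2: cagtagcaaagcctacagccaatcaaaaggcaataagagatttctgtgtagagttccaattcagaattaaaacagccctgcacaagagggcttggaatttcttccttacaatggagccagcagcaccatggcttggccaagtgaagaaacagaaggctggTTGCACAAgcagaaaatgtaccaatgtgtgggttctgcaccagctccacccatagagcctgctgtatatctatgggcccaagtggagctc
Adgre4: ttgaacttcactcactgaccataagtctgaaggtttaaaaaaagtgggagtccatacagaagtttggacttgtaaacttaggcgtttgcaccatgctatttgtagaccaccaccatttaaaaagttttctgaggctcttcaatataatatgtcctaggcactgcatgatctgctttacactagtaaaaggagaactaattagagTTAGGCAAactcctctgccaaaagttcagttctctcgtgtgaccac

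Surface receptors and adhesion molecules of patrolling cells were among the higher genes. Cx3cr1 had 418, 398, 431 and 369 CPM at days 0 to 9 against 155 to 215 CPM in classical monocytes, a log2 fold change of 1.14 ± 0.16 (edgeR adjusted p = 1.7e-06). Itgal, the alpha chain of the integrin LFA-1, had 374, 460, 379 and 330 CPM against 83.3 to 117 CPM (1.92 ± 0.18), and Spn differed by 1.67 ± 0.31. No library of members overlapped with one of classical monocytes for these 3 genes. Of 16 tested genes of migration and adhesion 8 were higher and 3 lower. S1pr5, a sphingosine-1-phosphate receptor for exit from the marrow, was higher by 4.15 ± 0.63 on 25 UMIs, and the retention receptor Cxcr4 by 1.30 ± 0.24. Itgb1 lost its call without day 3 (log2 fold change 0.82, edgeR adjusted p = 0.16), and Itga4 without day 0, 3 or 6 (adjusted p 0.092, 0.090 and 0.25) and over all members (0.30). Over all members Cx3cr1 differed by 0.70 ± 0.17 and was higher in 4 of 5 libraries.

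Genes of classical monocytes went the other way, with 9 of 13 lower, none higher and a median of -1.46. One of the 9, the matrix protein Thbs1, lost its call without day 0 (log2 fold change -1.11, edgeR adjusted p = 0.14). Ccr2, the receptor that brings classical monocytes out of the marrow, had 220.0, 486, 216 and 320.2 CPM in members and 704, 766, 883 and 808 CPM in classical monocytes (log2 fold change -1.39 ± 0.17, edgeR adjusted p = 1.3e-07). Fibronectin, Fn1, had 88.0, 265, 118 and 175 CPM against 787, 814, 849 and 962 CPM (-2.39 ± 0.18). The groups did not overlap for either of these genes. Ly6c2, the surface antigen that defines the classical subset, was lower by 1.88 ± 0.21 but uneven among members, with 242, 1839, 340 and 1368 CPM against 2150, 3568, 3021 and 2916 CPM. One member at day 9 held 94 of that library's 141 Ly6c2 UMIs. The chitinase-like Chil3 was lower at -1.85 ± 0.16 here and higher at 0.82 ± 0.14 over all members, where neutrophil-rich barcodes, at 2726 to 4553 CPM, were included.

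**Figure D3:**
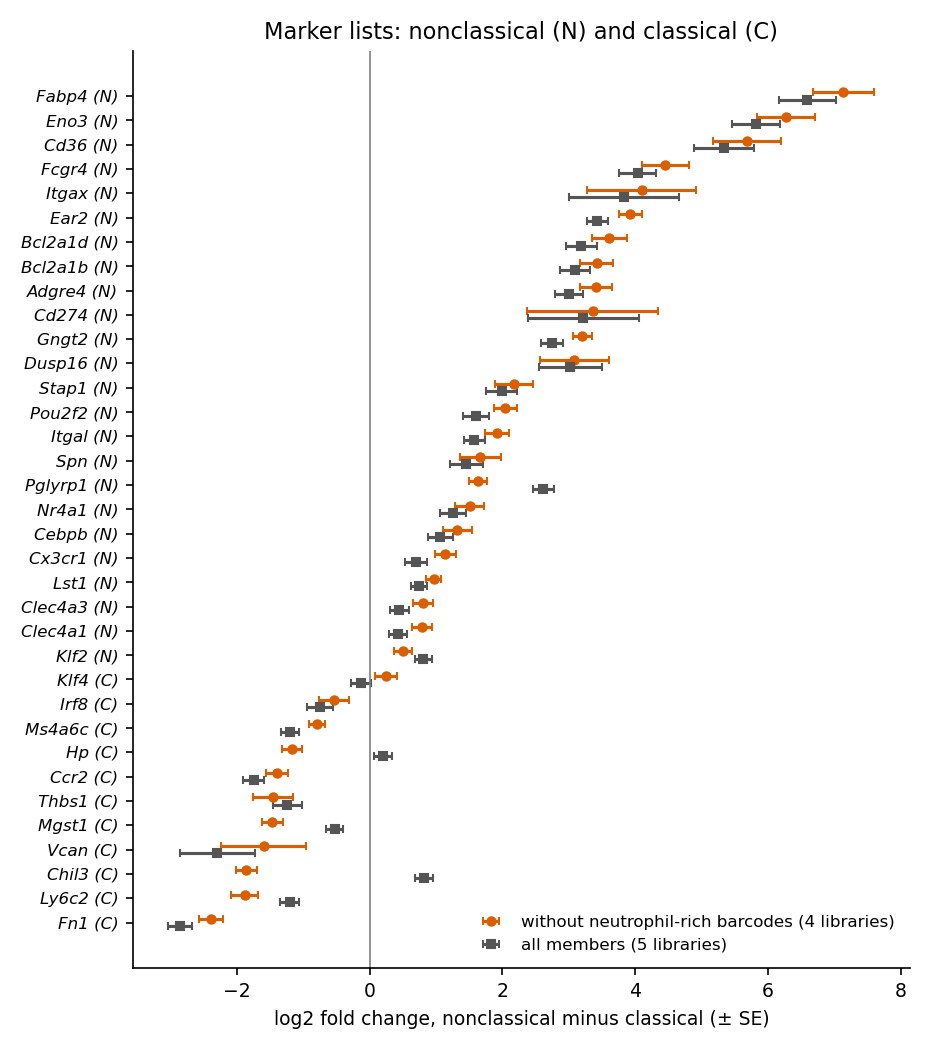
Log2 fold change with its SE of nonclassical against classical monocytes for the tested genes of the nonclassical (N) and classical (C) marker lists that are reported here. Orange points leave out neutrophil-rich barcodes and use 4 libraries, and grey squares hold all members and 5 libraries. All 24 nonclassical markers lie right of 0 in both, and Chil3 lies at -1.85 in one and at 0.82 in the other.

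Of the 15 genes with the largest decrease, 8 rested on 1 to 3 UMIs in members and are named without a fold: Casp6, Add1, Upf1, Ccr1, Hist1h2bc, Prkra, Tmem205 and Tubb2a. Each of these lost its call in at least 1 of the 4 comparisons that left out a library. The complement genes Cfp and C3 rested on more UMIs. Properdin, Cfp, had 11 UMIs in members and 88.0, 17.7, 13.1 and 29.1 CPM against 152 to 192 CPM (log2 fold change -2.74 ± 0.34, edgeR adjusted p = 2.1e-07), and C3 was lower by 1.59 ± 0.26. Over all members Cfp differed by -1.45 ± 0.21, and C3 did not pass the test (-0.35, edgeR adjusted p = 0.14). The remaining genes of the ranking beside Fn1 and Cfp were the tetraspan gene Ms4a8a (-2.62 on 6 UMIs), the differentiation inhibitor Id1 (-2.61 on 9), the glycosylation chaperone C1galt1c1 (-2.57 on 9), Smim5 (-2.51 on 4) and the chemokine Cxcl10 (-2.35 on 6). Cxcl10 lost its call without day 3 (adjusted p = 0.074) or day 6 (0.30).

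Lipid-handling genes included some of the widest differences on few UMIs. Fabp4, a fatty acid carrier, had 198, 79.6, 275 and 146 CPM in members and at most 2.34 CPM in classical monocytes, a log2 fold change of 7.14 ± 0.47 (edgeR adjusted p = 2.4e-14) on 75 UMIs. It was seen in 32 of 116 members, or 27.6%, against 0.606% of 990 classical monocytes and 0.227% of B-lineage barcodes. Cd36, a scavenger receptor for fatty acids, differed by 5.69 ± 0.51, the lipid-sensing nuclear receptor Pparg by 5.21 ± 0.63 and the phospholipid transfer protein Pltp by 3.76 ± 0.39. Apoe had 3959, 2140, 5078 and 3173 CPM against 650 to 1349 CPM (1.82 ± 0.12). One member held 91 of the 180 Apoe UMIs of day 0. In all, 5 of 11 tested lipid and scavenger genes were higher and none lower. The muscle-type enolase Eno3, from the marker list, differed by 6.27 ± 0.43, with 176, 61.9, 209 and 184 CPM against 1.53 to 2.56 CPM.

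MHC class II genes were carried by a minority of members. Of 7 tested genes, 4 were higher (H2-Eb1, H2-Aa, H2-Ab1 and the invariant chain Cd74) and H2-DMa was lower, although H2-DMa lost its call without day 3, 6 or 9 (adjusted p 0.057, 0.45 and 0.084). H2-Aa had 3476, 1680, 1104 and 2649 CPM against 368 to 548 CPM, a log2 fold change of 2.18 ± 0.17 (edgeR adjusted p = 3.8e-12). Of the 116 members 22 held at least 1% of their UMIs from these 4 genes, with a median of 4.19% against 0.0828% in the other 94. Among the 22, H2-Aa stood at 7585 to 10237 CPM by library, and among the 94 at 0 to 160 CPM. H2-Aa is one of the 4 genes that set this split, so these medians and levels follow from it and are given only as a description. Itgax, which encodes CD11c, was 120.0, 84.3, 121, 146 and 0 CPM from day 0 to day 12 in the 22 and 0, 11.2, 22.0, 0 and 51.9 CPM in the 94. These Itgax levels rest on very few UMIs in each library, and only 1 of the 22 came from day 12. Cd209a, from the list of conventional dendritic markers, reached 9, 8, 5 and 4 UMIs in single members of the 22, although most of the 22 held none. In the 94 it reached at most 3. Whether dendritic cells are among the 22 was not tested. Of class I genes 3 of 9 were higher, with H2-K1 at 0.99 ± 0.12, H2-D1 at 0.60 ± 0.10 and B2m at 0.47 ± 0.09, of which B2m lost its call without day 9 (adjusted p = 0.063) and over all members (0.13). The calls of Fcgr4, Ear2, Gngt2, Adgre4, Fabp4 and H2-K1 held without the MHC class II-high cells of both classes, and those of Cd274, the ligand PD-L1, and the lectin Clec10a did not (adjusted p 0.21 and 0.056).

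Transcription factors of the lineage were higher in 4 of 14 cases. These were Nr4a1, Cebpb, Pou2f2 and Klf2, all of them already counted in the nonclassical marker list. Nr4a1 had 242, 292, 327 and 155 CPM against 76.7 to 118 CPM (log2 fold change 1.51 ± 0.22, edgeR adjusted p = 4.4e-06), and Cebpb, which acts upstream of Nr4a1, had 264, 150.3, 320.2 and 252 CPM against 77.3 to 109 CPM (1.32 ± 0.22). Over all members Nr4a1 differed by 1.25 ± 0.19 and was higher in 3 of 5 libraries. Pou2f2 differed by 2.04 ± 0.17. Klf2 differed by 0.50 ± 0.14 and lost its call without day 3, 6 or 9 (adjusted p 0.097, 0.082 and 0.11). Among growth factor receptors and survival genes 4 of 9 were higher, namely both Bcl2a1 paralogs, the tumor necrosis factor receptor Tnfrsf1b (1.15 ± 0.20) and Bcl2, which lost its call without day 3 or 6 (adjusted p 0.053 and 0.22). Of 18 immediate-early and heat-shock genes 5 were higher. Besides Nr4a1 these were Hsp90aa1 (0.81 ± 0.16), the RNA-destabilizing Zfp36 (0.46 ± 0.13), the AP-1 subunit Jund (0.56 ± 0.14) and the antiproliferative Btg2 (0.77 ± 0.19). Btg2 lost its call without day 6 (adjusted p = 0.33), Zfp36 without day 3 or 9 (0.083 and 0.060), and Hsp90aa1 stood at -0.24 when proliferating classical cells were kept. Fos was lower by 0.54 ± 0.12, a call lost without day 0 or 9 (adjusted p 0.082 and 0.089).

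Some lists gave no call. None of 16 interferon-stimulated and none of 8 proliferation genes passed the test without neutrophil-rich barcodes (medians -0.20 and 0.14). Over all genes tested only 3.6% passed as higher and 3.74% as lower, so no call in lists this short lies near those shares. EdgeR gave an unadjusted p below 0.05 for 1244 of all 6577 genes. Over all members 6 of 15 interferon-stimulated genes were lower, and 6 of 10 proliferation genes and 8 of 8 neutrophil genes were higher (median of the neutrophil genes 3.01). Classical barcodes with Mki67, Top2a or Mpo had been left out and such members had not. The proliferation counts are therefore not an even comparison of the classes. Of 5 tested B-cell genes 2 were higher, Vpreb3 by 2.18 ± 0.41 and Ebf1 by 2.05 ± 0.51. Both lost their call without day 9 (edgeR adjusted p 0.077 and 0.64), and Vpreb3 did so when barcodes with UMIs of other lineages or among the deepest were left out (log2 fold change 1.44, adjusted p = 0.25).

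Barcodes that met every other limit but held F13a1 together with Ace or Treml4, called double-positive, were compared as a description without a test (19, 28, 31, 24 and 15 by day without neutrophil-rich ones). Gngt2 stood at 430 to 530 CPM in them by library, between the 143 to 241 CPM of classical monocytes and the 1342 to 1902 CPM of members. Ear2 at 87.2 to 242 CPM also lay between these classes. Fn1 at 434 to 666 CPM lay below every classical library and above every library of members. Ccr2 at 511 to 856 CPM and Ly6c2 at 1860 to 3087 CPM overlapped with classical monocytes.

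**Figure D4:**
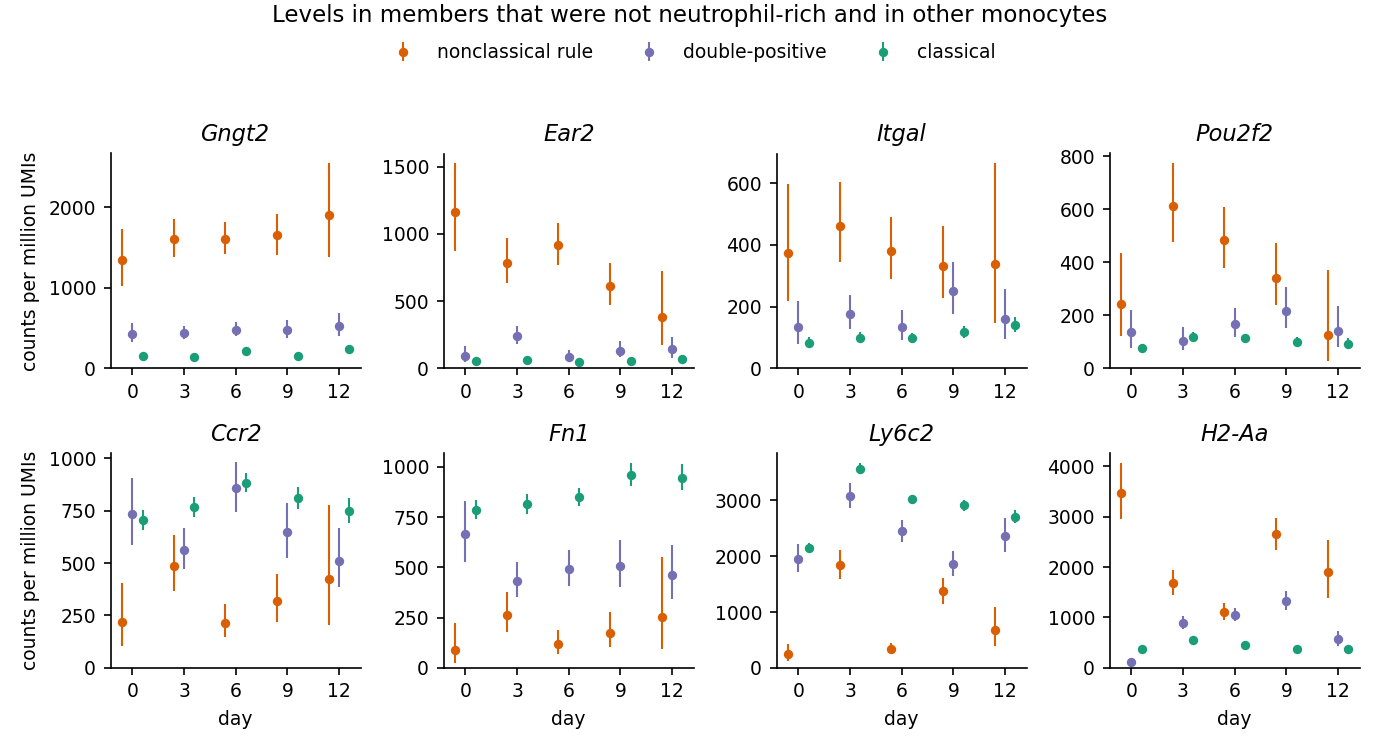
CPM by day for 8 genes in members that were not neutrophil-rich (orange), double-positive (violet) and classical (green) barcodes, 1 mouse a day, with exact Poisson 95% intervals for counting error only. Gngt2 keeps the 3 classes apart at every day, and Ly6c2 among members is 1839 CPM at day 3 and 1368 CPM at day 9 but 242 CPM at day 0.

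Detection in single cells gave the same picture at equal depth. Gngt2 was seen in 94.8% of members that were not neutrophil-rich and in 48.6% of classical monocytes, and after thinning every cell to 1000 UMIs in 76.8% and 15.9%. Fcgr4 went from 44.0% and 5.35% to 29.5% and 1.11%. Fn1 was seen in 19.8% and 91.3%, thinned 7.14% and 53.9%. Cx3cr1 hardly differed as counted (61.2% and 59.0%) and was seen in 31.25% and 17.7% after thinning. Thinning left out 4 members and 1 classical monocyte of fewer UMIs, and B-lineage barcodes, which should lack Fcgr4 and Fn1, held them in 2.38% and 7.20% before thinning. Gngt2 was present in 27.5% of B-lineage barcodes and offers no such background.

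Days were compared with day 0 without a test, among genes with at least 20 summed UMIs, counting those at least 2-fold apart. Without neutrophil-rich members 8.13% of 1009 genes were higher and 6.14% lower at day 3, 8.59% and 7.74% of 1176 at day 6, 5.97% and 5.97% of 905 at day 9, and 7.72% and 8.14% of 479 at day 12. Over all members the shares were 17.1% higher and 4.01% lower at day 3, 14.3% and 3.67% at day 6, 13.9% and 2.91% at day 9, and 6.08% and 5.23% at day 12. There the median of all genes was itself 0.38, 0.25, 0.34 and 0.00 on the log2 scale, against 0.06, -0.05, -0.04 and -0.02 without neutrophil-rich members, and the neutrophil-rich share of members was 40.7% at day 0, 30.6% at day 3, 21.2% at day 6, 34.9% at day 9 and 60.0% at day 12. The day values below therefore leave out these members unless said otherwise.

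Immediate-early and heat-shock genes lay below their day 0 levels on the median at each later day. Their median difference from day 0 was -0.52, -0.56, -0.61 and -0.83 on the log2 scale at days 3, 6, 9 and 12, with 3 of 15, 2 of 14, 3 of 15 and 3 of 10 genes at least 2-fold lower and none, 1, 1 and none at least 2-fold higher. Over all members the medians were -0.41, -0.67, -0.13 and -0.30. Dusp1, a phosphatase that switches off stress kinases, stood at 1584 CPM at day 0 (95% Poisson interval 1239 to 1995) and at 601, 588, 689 and 845 CPM later. Fos, an AP-1 subunit, stood at 1760 CPM (1395 to 2190) and then at 1017, 993, 990 and 1057 CPM. Classical monocytes of the same libraries had 1273, 435, 460, 631 and 1160 CPM of Dusp1 and 2791, 1267, 1187, 1691 and 2465 CPM of Fos. Both classes were thus highest at day 0, and in classical monocytes day 12 was nearly as high. The members of day 12 were 6 cells, of which 1 held 16 of 20 Dusp1 UMIs.

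Of the nonclassical markers with at least 20 summed UMIs 1 of 18 was at least 2-fold higher and 2 lower at day 3, 2 of 24 and none at day 6, 1 of 22 and none at day 9, and none of 12 and 3 at day 12. This list holds Csf1r, Ace and Treml4, genes of the rule, so its counts are given only as a description. Over all genes 8.13% were higher and 6.14% lower at day 3, and 8.59% and 7.74% at day 6. At day 9 these shares were 5.97% and 5.97%, and at day 12 7.72% and 8.14%. Gngt2 had overlapping intervals over the whole course. Ear2 was 1166 CPM (873 to 1525) at day 0, 611 CPM (470 to 782) at day 9 and 380 CPM (174 to 722) at day 12, so the interval of day 0 lay above both. Treml4, a gene of the rule, had no UMI among the 6 members of day 12, whose 23659 UMIs allow up to 127 CPM at the limit of 3 counts that a count of 0 allows. MHC class II genes had median differences from day 0 of -0.79, -1.45, -0.56 and -0.57 at days 3, 6, 9 and 12. At least 2-fold lower were 2 of 6, 5 of 6, 1 of 6 and none of 5, and 1 was higher at day 12. At day 6, 4 of 41 members were MHC class II-high against 4 of 16 at day 0, where 1 member held 69 of the 158 H2-Aa UMIs. Over all members no MHC class II gene was 2-fold apart at days 3, 6 and 9, and the medians were 0.04, -0.57, 0.14 and -0.77.

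**Figure D5:**
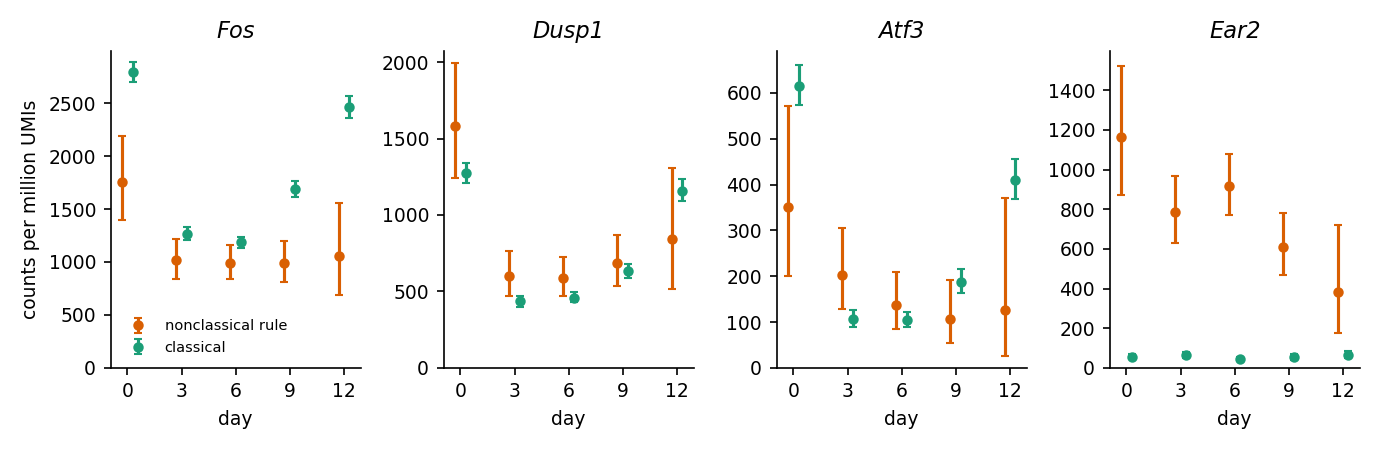
CPM of Fos, Dusp1, Atf3 and Ear2 by day in members that were not neutrophil-rich (orange) and classical monocytes (green), 1 mouse a day, with exact Poisson 95% intervals. Fos and Dusp1 are highest at day 0 among members, at 1760 and 1584 CPM. Ear2 is 45.1 to 66.6 CPM in classical monocytes.

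Genes at least 2-fold from day 0 in one direction at all 4 later days numbered 14 higher and 11 lower of 890 without neutrophil-rich members, and 45 higher and 2 lower of 1419 over all members. The higher genes included the heat-shock factor binding protein Hsbp1 (22.0 CPM at day 0, then 133, 170, 184 and 84.5), the small GTPase Rhog (22.0, then 203, 150.3, 126 and 84.5) and the mitochondrial complex III subunit Uqcrfs1 (44.0, then 301, 176, 165 and 296). Day 0 rested on 1 UMI for Hsbp1 and Rhog and on 2 for Uqcrfs1. Classical monocytes showed no such rise, with 147 to 161 CPM of Hsbp1, 153 to 211 of Rhog and 239 to 268 of Uqcrfs1 over the days. The lower genes included the chemokine Ccl3 (770 CPM, then 61.9, 137, 77.6 and 0), the tetraspanin Cd9 (682 CPM, then 124, 150.3, 77.6 and 42.3) and the stress gene Gadd45b (462 CPM, then 141, 91.5, 165 and 84.5). Single cells carried part of this, since 1 member held 23 of the 31 Cd9 UMIs and 1 held 14 of the 35 Ccl3 UMIs of day 0. In classical monocytes Cd9 was 39.0 to 62.8 CPM at every day, and Ccl3 was 304, 114, 78.5, 146 and 288 CPM.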

How the data were processed

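The files held the UMI counts per gene and barcode that the authors deposited from Cell Ranger 2.1.1, with 28692 genes and no further normalization. Library totals were 33425695 to 43554233 UMIs, and kept barcodes had medians of 3143 to 4397 UMIs. No doublet caller was run; barcodes with at least 2 UMIs of another lineage or among the deepest 2% were left out as an alternative. Counts were summed by library and class (at least 10 cells) and tested with edgeR 4.0.16 (R 4.3.3, filterByExpr, TMM, quasi-likelihood, Benjamini-Hochberg), with library as a term; DESeq2 1.42.0 was an alternative. The script was tested on simulated data. Day differences used a pseudocount of 1. Named genes were list members and the 15 highest and 15 lowest called genes with 1 sign in every library and at least 100 UMIs. Members and lists were chosen with earlier results of these data known. The macrophage class had under 10 cells in every library and could not be tested. Counts over the marker lists include genes that are not reported here by name.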

Additional observations from a re-analysis of the deposited data

How the results depend on the processing

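Shares of nonclassical monocytes from day 0 to day 12 were 0.144%, 0.390%, 0.463%, 0.259% and 0.0719% with at least 2 UMIs of Ace or Treml4, and 0.119%, 0.194%, 0.295%, 0.152% and 0.0937% after thinning to 1000 UMIs. Without neutrophil-rich barcodes in either count they were 0.513%, 1.34%, 1.54%, 1.0% and 0.471%, with overlapping intervals at days 0 (0.294% to 0.832%) and 12 (0.173% to 1.02%), and without neutrophil-rich members over all barcodes 0.256%, 0.513%, 0.403% and 0.108% at days 0, 3, 9 and 12. Without suspected doublets days 0, 6 and 9 gave 0.657%, 1.16% and 0.867%. Day 6 was highest and day 12 lowest in each of these settings, but the intervals of days 0 and 6 overlapped after thinning (0.0477% to 0.244% and 0.172% to 0.473%) and without suspected doublets (0.421% to 0.976% and 0.833% to 1.58%).

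Of 563 higher and 452 lower genes, thinning left 143 and 112, at least 2 UMIs of Ace or Treml4 (3 libraries) 172 and 153, and leaving out neutrophil-rich barcodes 237 and 246. Lower genes were 244 by DESeq2, 852 without a filter and 1100 with proliferating classical cells kept. Leaving out 1 library gave 395 to 512 higher and 257 (without day 9) to 401 lower genes. Of the 237 and 246, thinning left 101 of each, and keeping proliferating classical cells gave 423 and 887. Lower genes were 84 by DESeq2, 418 without a filter and 163 without the library term. Leaving out 1 library gave 150 (without day 6) to 204 higher and 130 to 169 lower genes, with 130 without day 0, 144 without day 6 and 157 without day 9. Chil3 over all members was -0.17 after thinning and -1.85 without neutrophil-rich barcodes, and Hsp90aa1 was -0.24 with proliferating classical cells kept. Of 77 called genes checked one by one, 44 kept sign and call in every alternative that gave them a value, and 19 were not past the threshold by DESeq2. Alternatives in which a gene was filtered out were not counted.

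Between days, thinning left 28, 45, 23 and 13 higher and 28, 29, 23 and 27 lower genes at days 3, 6, 9 and 12, leaving out neutrophil-rich members gave 82, 101, 54 and 37 higher genes, and the doublet limit gave 174 at day 6. The cause of these differences was not tested, beyond the fewer genes and cells that thinning and filters leave. Between days no paired analysis was possible because each day had 1 mouse, while the comparison with classical monocytes was paired by library through the library term. Depth limits the rule, which rests on single UMIs in most members. The limit on neutrophil genes and all settings without neutrophil-rich barcodes were chosen after the data were seen.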
